A study of Homo sapiens with 34 samples.

Results

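The 10 genes described here encode proteins of bone matrix and mineral, and regulators of the cells that build and resorb bone. They are RUNX2, SPP1, IBSP, SPARC, ALPL, BGLAP, TNFRSF11B, TNFSF11, PTHLH and DKK1, taken by symbol from a count table of 26336 genes, and all 10 were found. RNA-seq of polyadenylated RNA covered 34 libraries of 4 human prostate lines. RWPE is non-tumorigenic prostate epithelium, LNCaP comes from a lymph node metastasis, and VCaP and MDAPCa2a come from bone metastases. Cells grew on plastic or on plates carrying a layer of amorphous calcium phosphate (ACP), which serves as a mineral surface like that of bone. Cells were kept in the control medium of each line, in medium whose serum had been stripped with charcoal dextran, which removes steroid hormones, or in stripped medium with androgen. The androgen is labelled 100 mM, and is called DHT in the sample titles and testosterone in the treatment labels.

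The libraries fell into 17 groups. LNCaP and VCaP each had control and stripped medium on plastic, and control, stripped and androgen medium on ACP. RWPE had control medium on plastic and on ACP, and androgen medium on ACP. MDAPCa2a had control and stripped medium on plastic, and stripped and androgen medium on ACP. Groups held 2 libraries each, except 3 for RWPE with androgen on ACP and 1 for VCaP in stripped serum on plastic. RWPE control medium was a keratinocyte medium without serum, the tumour lines had serum in 3 different base media, and MDAPCa2a plastic carried an adhesion-protein coating (FNC) that its ACP plates lacked. Line and medium therefore cannot be told apart, nor can surface and coating in MDAPCa2a. Plastic control libraries are labelled continuous culture and all others day 4. Culture time therefore cannot be told apart from serum on plastic, or from surface in control medium. The labels do not say that replicate libraries came from separate cultures, so p-values measure only the spread between these libraries, which may be technical.

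Bone is built by osteoblasts, which RUNX2 commits to their fate and which then lay down collagen with SPARC (osteonectin), IBSP (bone sialoprotein), SPP1 (osteopontin) and BGLAP (osteocalcin), while the phosphatase ALPL removes pyrophosphate, an inhibitor of mineral growth. Osteoclasts resorb bone when TNFSF11 (RANKL) binds its receptor on their precursors, and TNFRSF11B (osteoprotegerin) is a soluble decoy that captures RANKL. PTHLH, a parathyroid hormone-like peptide, raises RANKL in osteoblasts, and DKK1 blocks the WNT signal that drives bone formation. Prostate cancer metastases in bone are typically bone-forming, and the expression of bone-cell genes by the tumour cells is known as osteomimicry.

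Total counts ran from 15440141 to 44779246 per library, from 34947115 upwards in the 8 plastic control libraries and up to 37015516 in the other 26. The lines differed in epithelial markers: the summed level of 6 basal genes was 3897 to 17766 CPM in RWPE (CPM, the usual read count scaled to library size) and at most 104 CPM in the tumour lines, and the sum of 7 luminal genes was 815 to 1471 CPM in RWPE and 4016 to 18962 CPM in the tumour lines. Plastic control libraries stood apart in other markers in some lines. The sum of 9 liver genes was 20.6 to 22.5 CPM in RWPE plastic control and 0.939 to 3.12 CPM in the other RWPE libraries, and the sum of 9 fibroblast genes in MDAPCa2a was 10.4 to 13.7 CPM against 1.21 to 2.79 CPM. The fibroblast sum overlapped in LNCaP (46.9 to 54.2 against 21.7 to 75.1 CPM) and in VCaP (30.9 to 62.6 against 11.0 to 162.8 CPM). In VCaP the liver sum overlapped too (86.4 to 182.6 against 58.3 to 390.8 CPM). The sum of 8 osteoblast markers was 26.9 to 43.6 CPM in RWPE, 14.5 to 37.1 CPM in LNCaP, 2.72 to 8.12 CPM in VCaP and 1.40 to 4.58 CPM in MDAPCa2a, with 1 to 4 of the 8 at 0 reads in each group; DMP1 had no read in 15 of the 17 groups and MEPE in 14.

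RUNX2 was read in every library, whereas BGLAP, SPP1 and IBSP, which textbooks count among its targets in osteoblasts, stayed near the limit of detection. The promoter windows of these 3 genes are therefore shown, from RefSeq on GRCh38.p14, 5′ to 3′ on the gene's strand, from 250 bases before to 50 bases after the annotated start. Capitals mark the RUNX motif AACCACA, searched with its reverse complement TGTGGTT. BGLAP is at chr1:156241934-156242233, SPP1 at chr4:87975464-87975763 and IBSP at chr4:87799304-87799603, all on the plus strand.
BGLAP: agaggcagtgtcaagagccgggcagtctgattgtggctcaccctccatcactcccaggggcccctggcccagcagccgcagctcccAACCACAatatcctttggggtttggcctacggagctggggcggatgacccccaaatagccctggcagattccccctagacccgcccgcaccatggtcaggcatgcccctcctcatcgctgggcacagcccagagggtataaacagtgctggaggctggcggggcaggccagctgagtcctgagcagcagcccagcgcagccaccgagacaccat
SPP1: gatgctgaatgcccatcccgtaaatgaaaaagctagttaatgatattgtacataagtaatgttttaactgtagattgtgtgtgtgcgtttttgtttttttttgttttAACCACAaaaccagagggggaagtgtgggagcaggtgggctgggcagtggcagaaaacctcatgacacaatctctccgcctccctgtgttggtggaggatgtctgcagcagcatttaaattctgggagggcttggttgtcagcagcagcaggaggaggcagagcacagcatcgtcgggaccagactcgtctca
IBSP: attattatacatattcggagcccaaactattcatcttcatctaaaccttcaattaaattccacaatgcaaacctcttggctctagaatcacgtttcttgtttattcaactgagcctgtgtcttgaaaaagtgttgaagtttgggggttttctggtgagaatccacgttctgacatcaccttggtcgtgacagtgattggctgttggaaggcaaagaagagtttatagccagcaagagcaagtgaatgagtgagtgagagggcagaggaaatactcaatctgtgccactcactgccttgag
The motif begins 164 bases before the start in BGLAP and 143 bases before it in SPP1, and these letters are not in the IBSP window. It occurs in 4.3% of 35116 RefSeq windows of this length. Among 13 windows matched to 9 of the 10 genes, a window of RUNX2 itself also holds it, at 3 places. The TATA letters TATAAA or their reverse complement TTTATA, in 11.5% of all windows, begin 28 bases before the start in the BGLAP window (TATAAA) and 30 in that of IBSP (TTTATA), and neither is in that of SPP1. The half-site AGAACA of the androgen response element or its reverse complement TGTTCT, in 14.8% of all windows, occurs only in a PTHLH window among the 13. These matches describe letters, not binding.

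Levels are CPM with library sizes scaled by TMM (a trimmed-mean scaling), and a group's detection limit is the level that 3 reads summed over its libraries give, which ran from 0.0324 to 0.144 CPM. Where a group had no read, a fold given as "at least" is the observed level of the other group over this limit. Such a fold leaves out the counting error of the other group and can overstate the difference. RUNX2 was above the detection limit in 17 of 17 groups and averaged over 1 CPM in each. SPARC averaged over 1 CPM in 8 groups, ALPL in 6, and PTHLH and DKK1 in 3, the latter 2 only in the RWPE groups. TNFRSF11B never averaged 1 CPM, its highest group being LNCaP in stripped serum on plastic at 0.511 ± 0.142 CPM (SD, n = 2). IBSP, BGLAP and TNFSF11 were at or under the limit in all 17 groups and SPP1 in 13. Per kilobase of exon, which allows a comparison between genes, the highest group means were 7.36 CPM for DKK1 and 5.42 for SPARC, both in RWPE, then 2.88 for PTHLH in RWPE, 2.16 for ALPL in VCaP and 2.13 for RUNX2 in LNCaP. In bulk RNA, fewer cells that express a gene and less RNA per cell cannot be told apart.

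**Figure D1:**
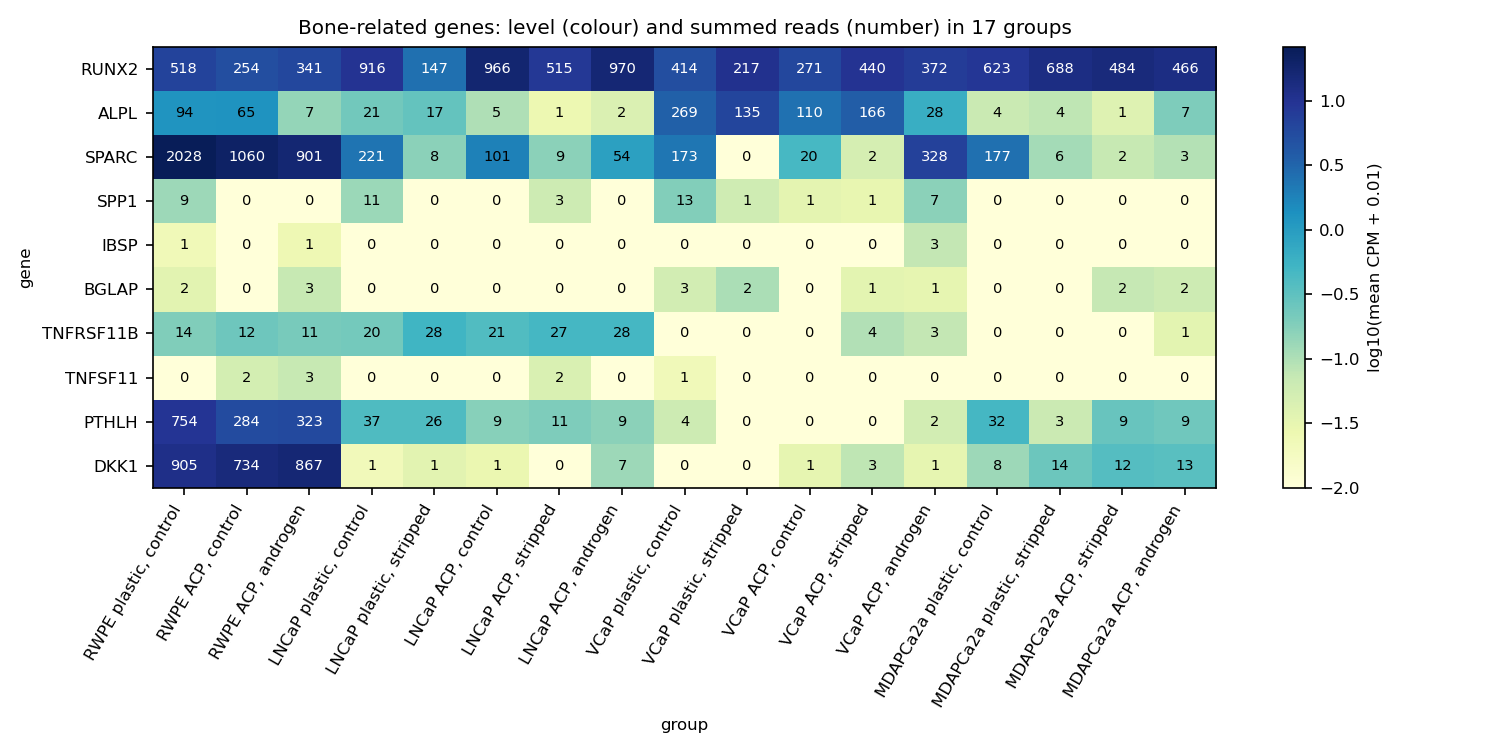
Reads of each of the 10 genes summed over the libraries of a group (number in each cell) and mean level (colour, log10 of CPM + 0.01), with genes in rows and the 17 groups in columns. RUNX2 is read in every group, PTHLH and DKK1 are dense only in the RWPE columns, and IBSP, BGLAP and TNFSF11 hold at most 3 reads in any group.

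Of the 10 genes, 6 were frequent enough to be tested in the fit of all libraries: RUNX2, SPARC, ALPL, TNFRSF11B, PTHLH and DKK1. Each entered because it was high in some group, so counts of these genes describe the comparisons and support nothing by themselves. On plastic in control medium, 4 of the 6 passed the test (edgeR quasi-likelihood, adjusted p below 0.05) for LNCaP against RWPE, where 57.4% of all tested genes did. For VCaP against RWPE 5 of 6 passed with 62.4% of all genes, and for MDAPCa2a against RWPE 5 of 6 with 56.7%. Among the tumour lines, 4 of 6 passed for VCaP against LNCaP (52.6% of all genes), 2 for MDAPCa2a against LNCaP (40.2%) and 4 for VCaP against MDAPCa2a (52.4%). On ACP with androgen, the other condition that all 4 lines share, 4 of 6 passed for LNCaP against RWPE (66.9% of all genes), 4 for VCaP against RWPE (67.4%) and 5 for MDAPCa2a against RWPE (64.0%). There, 4 passed for VCaP against LNCaP (56.0%), 2 for MDAPCa2a against LNCaP (45.3%) and 2 for VCaP against MDAPCa2a (51.4%). The lines differ in so many genes that these shares say little about the bone genes.

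Within lines the background was far lower. Androgen against stripped serum on ACP moved 1 of 4 tested genes in LNCaP, where 7.73% of all genes passed, and 2 of 3 in VCaP, where 17.5% did. In MDAPCa2a, edgeR called 0 of 4 genes and 0% of all genes, none of the 4 was at an unadjusted p below 0.05, and DESeq2 also called 0 of the 4. RWPE with androgen medium against control medium on ACP, a change that also replaces the medium, gave 1 of 5 genes with 19.1% of all genes. ACP against plastic in stripped serum gave 1 of 4 genes in LNCaP (6.12% of all genes), 0 of 3 in VCaP (0%) and 0 of 4 in MDAPCa2a (0.00734%), and for both zeros 0 genes were at an unadjusted p below 0.05 and 0 were called by DESeq2. ACP against plastic in control medium gave 0 of 5 in RWPE (4.16% of all genes), 1 of 4 in LNCaP (12.6%) and 0 of 3 in VCaP (0.0448%). In RWPE and in VCaP 1 gene each was at an unadjusted p below 0.05, with 0 calls by DESeq2. Stripped against control serum gave 2 of 4 genes in LNCaP on ACP (5.37% of all genes) and 2 of 4 on plastic (9.45%), and 1 of 4 in MDAPCa2a on plastic (1.58%). In VCaP it gave 0 of 3 on ACP (0.820%) and 0 of 3 on plastic (0.890%), with 1 and 2 genes at an unadjusted p below 0.05, of which DESeq2 called 0 and 1. The plastic control groups are shared by several of these comparisons, as are the ACP stripped groups.

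RUNX2, the transcription factor at the head of the osteoblast programme, changed in LNCaP and passed the test in no within-line comparison of the other 3 lines. It lies on chromosome 6, 45328157 to 45664349 on the plus strand (GRCh38, GENCODE release 29). In LNCaP it stood at 8.85 and 11.0 CPM on plastic in control medium and at 2.33 and 2.86 CPM on plastic in stripped serum. On ACP the 2 libraries were at 14.9 and 20.0 CPM in control medium, 8.70 and 8.62 CPM in stripped serum and 19.8 and 13.0 CPM with androgen. Stripped serum on plastic was thus the lowest LNCaP group and did not overlap any other, and the control and androgen groups on ACP overlapped each other. On plastic RUNX2 was lower in stripped than in control medium by 1.90 on the log2 scale (SE 0.27, edgeR adjusted p = 0.00187), where culture time also differed. On ACP it fell by 1.03 with stripping (SE 0.25, adjusted p = 0.0411). In stripped serum RUNX2 was higher on ACP than on plastic by 1.79 (SE 0.28, adjusted p = 0.00575). In control medium it was higher by 0.92 (SE 0.25, adjusted p = 0.0378), where culture time also differed.

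The size of the RUNX2 surface effect in LNCaP did not pass a test of its difference between media (0.93, SE 0.43, adjusted p = 0.717, 0 of 6 genes called with 0.421% of all genes, 1 at an unadjusted p below 0.05 and 0 by DESeq2). Androgen on ACP left RUNX2 at 0.91 above stripped serum (SE 0.25), which missed the threshold (edgeR adjusted p = 0.0516); without androgen library 2 it was 1.20 with an adjusted p of 0.0115, and DESeq2 gave 0.0106. The fall on plastic passed in every refit without 1 library. The rise on ACP in stripped serum had an adjusted p of 0.106 without the first plastic stripped library. The control-medium rise missed the threshold without any 1 of its 4 libraries (adjusted p from 0.0771 to 0.273), and the fall on ACP without the second control library (0.125) or either stripped library (0.232 and 0.177). SUPT3H overlaps RUNX2 on the opposite strand, and its reads cannot be separated without strand information. SUPT3H stayed between 3.49 and 5.88 CPM in the 10 LNCaP libraries. In VCaP on ACP it was at 1.27 and 2.85 CPM in control medium and 4.58 and 4.06 CPM in stripped serum. With androgen it was at 1.56 and 0.788 CPM there. On VCaP plastic it was at 4.29 and 1.83 CPM in control medium and 4.52 CPM in stripped serum. RWPE on ACP had it at 8.17 and 8.33 CPM in control medium and 11.7 to 16.1 CPM with androgen. Its part in the RUNX2 counts was not tested.

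In the other lines RUNX2 varied less. RWPE libraries lay between 4.53 and 7.44 CPM and MDAPCa2a libraries between 7.39 and 16.8 CPM, with group means from 8.98 ± 2.24 CPM (SD, n = 2) on plastic in control medium to 14.6 ± 3.19 CPM (n = 2) on ACP in stripped serum. VCaP read 3.27 and 7.28 CPM on plastic in control medium, 10.4 CPM in its 1 plastic stripped library, 5.64 and 6.52 CPM on ACP in control medium, 10.1 and 9.51 CPM in stripped serum and 8.35 and 7.84 CPM with androgen. The stripped VCaP libraries were above the control libraries on both surfaces, the reverse of the order in LNCaP, but neither difference passed (0.71, SE 0.37, adjusted p = 0.364 on ACP, and 1.03, SE 0.43, adjusted p = 0.223 on plastic). With androgen on ACP, RUNX2 was higher than in RWPE by 1.43 in LNCaP (SE 0.27, adjusted p = 5.06e-05) and by 1.05 in MDAPCa2a (SE 0.27, adjusted p = 0.00169), and both differences passed without any 1 library.

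**Figure D2:**
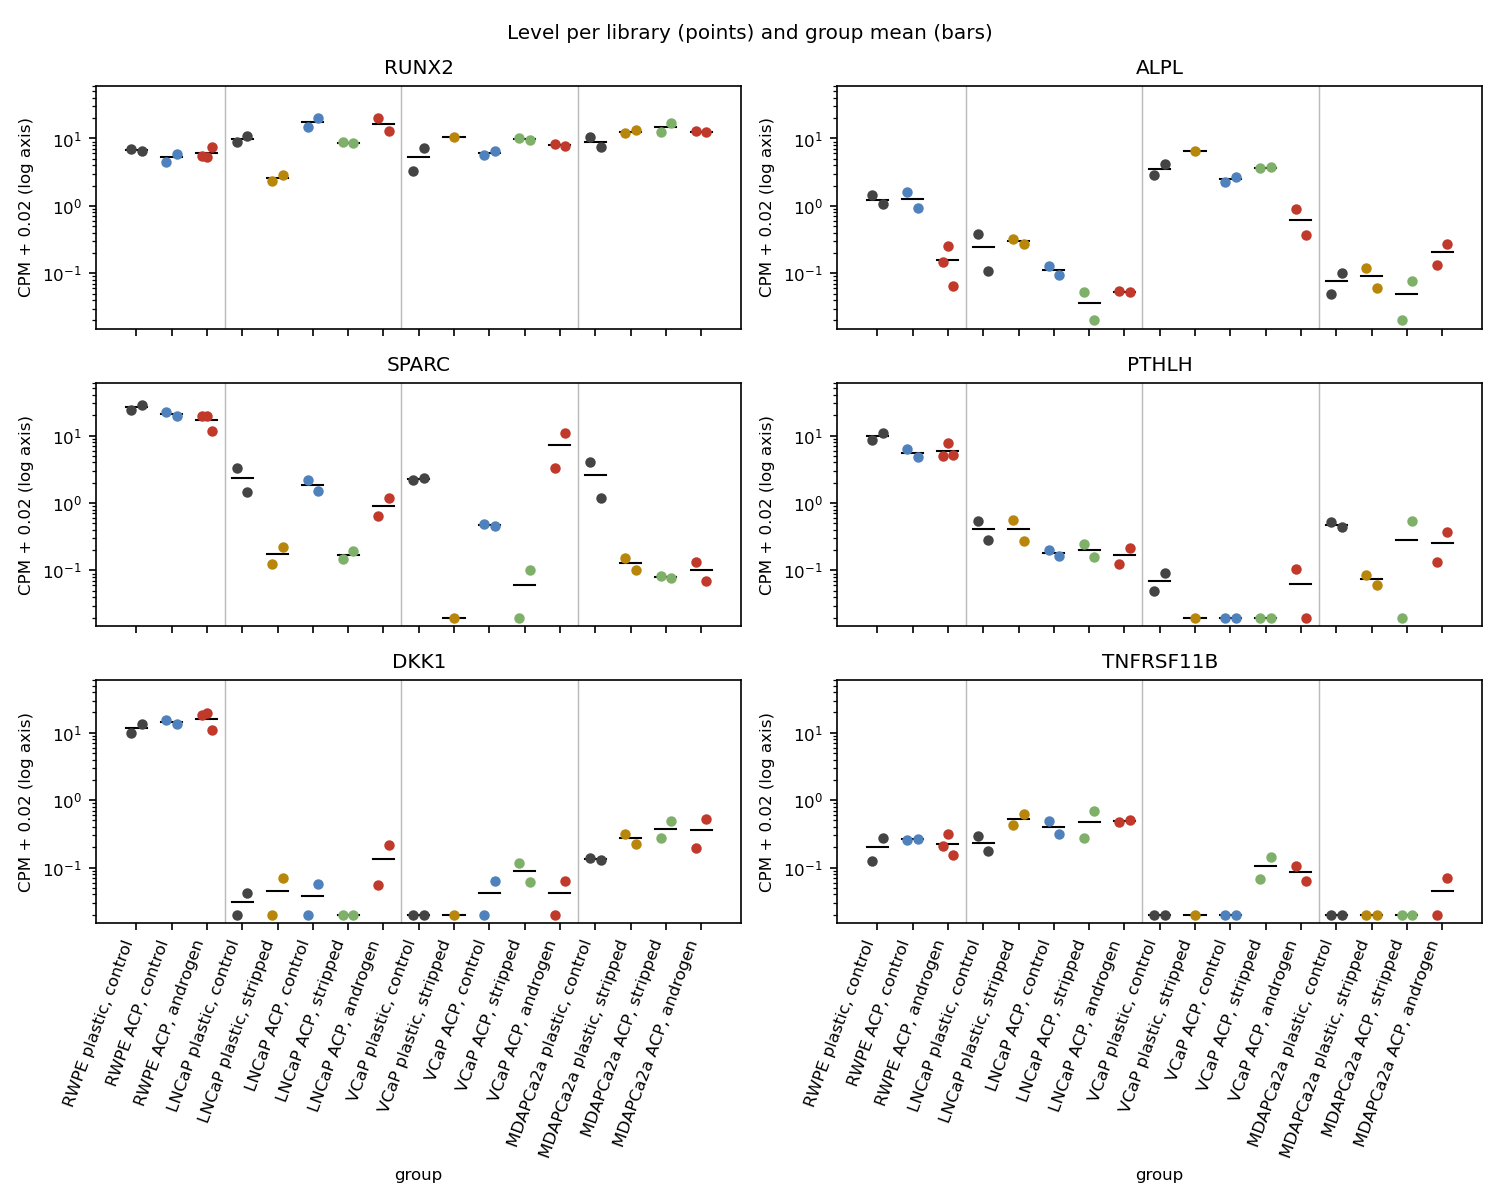
Level of the 6 tested genes in each of the 34 libraries (points) and group means (bars) in the 17 groups, as CPM + 0.02 on a log axis, with vertical lines between the cell lines. RUNX2 is within 1 order of magnitude in all libraries, SPARC, PTHLH and DKK1 are highest in RWPE, and ALPL is highest in VCaP.

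BGLAP, SPP1 and IBSP, whose promoters are printed above, were close to absent from the counts in every line. BGLAP had 16 reads in all 34 libraries, at most 3 in one library and none in 25. It lies inside the span of the read-through gene PMF1-BGLAP, which had 6 to 57 reads per library, and overlaps PAQR6 on the opposite strand. Reads shared with PMF1-BGLAP cannot be assigned, nor can those shared with PAQR6 without strand information. The low count therefore does not show that BGLAP RNA was absent. IBSP had 5 reads in all, 3 of them in the second VCaP library with androgen. SPP1 had 46 reads and none in any of the 8 MDAPCa2a libraries. Its reads were 5 and 4 in RWPE, 3 and 8 in LNCaP and 6 and 7 in VCaP on plastic in control medium, and 2 and 5 in VCaP with androgen on ACP, and no other library had more than 2. On plastic in control medium the 13 VCaP reads against none in MDAPCa2a put SPP1 at least 3.99-fold higher in VCaP, taking 3 reads over the MDAPCa2a group as the floor. The liver marker sum was also higher in the plastic control libraries of RWPE (values above) and LNCaP (17.9 to 25.3 against 2.14 to 7.70 CPM). It was higher too in those of MDAPCa2a (10.3 to 17.1 against 0.445 to 3.21 CPM), the line with no SPP1 read. In VCaP it was not higher (86.4 to 182.6 against 58.3 to 390.8 CPM). The part of the liver sum in the SPP1 reads was not tested.

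ALPL, the phosphatase that permits mineral growth, was highest in VCaP. It lies on chromosome 1, 21509372 to 21578412 on the plus strand. VCaP libraries read 2.86 and 4.12 CPM on plastic in control medium, 6.48 CPM on plastic in stripped serum, 2.25 and 2.68 CPM on ACP in control medium, 3.61 and 3.77 CPM in stripped serum, and 0.865 and 0.350 CPM with androgen. The 2 androgen libraries were the lowest of the 9 and did not overlap any other VCaP group. Against stripped serum on ACP, ALPL fell by 2.59 on the log2 scale with androgen (SE 0.48, edgeR adjusted p = 0.00797), and without the second androgen library the difference was -2.09 with an adjusted p of 0.0609, and without the first it was -3.36 (0.0188). The sum of 9 liver markers was also lower with androgen (58.3 to 137.5 CPM against 333.7 to 390.8 CPM in stripped serum, FGG and FGA at 0 reads in both groups), as was the fibroblast sum (11.0 to 11.5 against 41.7 to 162.8 CPM, THY1 at 0 in both). The osteoclast and myeloid sum was higher with androgen (85.4 to 157.6 against 11.8 to 16.97 CPM), and the part of these lists in the ALPL result was not tested. LNCaP libraries had at most 17 reads of ALPL (0.359 CPM) and MDAPCa2a libraries at most 5 (0.253 CPM).

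ALPL also fell in RWPE with androgen medium. RWPE libraries read 1.41 and 1.04 CPM on plastic, 1.57 and 0.925 CPM on ACP in control medium, and 0.125, 0.235 and 0.0451 CPM with androgen, which is 2, 4 and 1 reads. The androgen libraries did not overlap either control group, and ALPL fell by 3.22 against control medium on ACP (SE 0.61, adjusted p = 0.017). The adjusted p was 0.275 without the first and 0.0913 without the second ACP control library, and without androgen library 2 the difference was -3.89. In RWPE this comparison joins androgen to a change of medium, so the 2 cannot be told apart, and the basal marker sum was 3897 to 12106 CPM in the androgen libraries against 14202 to 17766 CPM in ACP control. The osteoblast marker sum was also lower there (26.9 to 36.1 against 39.2 to 43.6 CPM, DMP1 and MEPE at 0 reads in both), as were the liver sum (0.939 to 1.70 against 2.45 to 3.12 CPM) and the osteoclast and myeloid sum (83.0 to 87.1 against 91.4 to 104.6 CPM); their part in the ALPL result was not tested. ALPL was higher in VCaP than in RWPE by 1.51 on plastic in control medium (SE 0.50, adjusted p = 0.0108) and by 2.20 on ACP with androgen (SE 0.67, adjusted p = 0.00571). The first missed the threshold without the second RWPE library (0.0929) or the second VCaP library (0.0808), and the second without the first VCaP library (1.41, 0.155); without RWPE androgen library 2 the second was 2.94. With the replicate number as a block, neither passed (adjusted p = 0.0504 and 0.0915).

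SPARC, a collagen- and calcium-binding matrix protein, passed within-line tests in all 3 tumour lines. It lies on chromosome 5, 151661096 to 151687165 on the minus strand. RWPE held it at 11.7 to 28.6 CPM over its 7 libraries and passed no test within that line. LNCaP read 3.27 and 1.46 CPM on plastic in control medium and 0.103 and 0.204 CPM in stripped serum. On ACP it read 2.15 and 1.5 CPM in control medium, 0.129 and 0.175 CPM in stripped serum and 0.622 and 1.17 CPM with androgen. Stripped LNCaP libraries held 4 or 5 reads each, below every control and androgen library of the line. On plastic SPARC was lower in stripped than in control medium by 3.99 on the log2 scale (SE 0.63, edgeR adjusted p = 0.00301), where culture time also differed. On ACP it fell by 3.58 with stripping (SE 0.62, adjusted p = 0.00806). Androgen raised it by 2.52 over stripped serum (SE 0.64, adjusted p = 0.0364).

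These LNCaP values rest on few libraries. The androgen rise had adjusted p from 0.0557 to 0.214 when any 1 of its 4 libraries was left out. The fall on ACP had 0.0987 and 0.0676 without either stripped library, and the fall on plastic 0.0698 without the first stripped library; without the first control library its log2 difference was -3.29. The summed fibroblast markers were 46.9 to 54.2 CPM in LNCaP plastic control and 48.7 to 54.5 CPM in plastic stripped libraries. That sum thus did not fall with SPARC there. The liver sum fell (17.9 to 25.3 against 2.14 to 3.03 CPM), as did the luminal one (7493 to 7697 against 4016 to 4438 CPM). Lymphoid (13.4 to 16.8 against 3.54 to 7.496 CPM) and osteoclast and myeloid sums (10.5 to 10.7 against 6.58 to 6.82 CPM) also fell. The osteoblast sum rose (30.9 to 32.72 against 32.74 to 37.1 CPM) and the basal sum overlapped. The part of these lists in the SPARC result was not tested. The surface comparison of SPARC in LNCaP passed in neither medium (0.15, SE 0.82, adjusted p = 0.929 in stripped serum, and -0.27, SE 0.47, adjusted p = 0.73 in control medium).

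In VCaP the same gene had a wider range. It read 2.19 and 2.36 CPM on plastic in control medium, none in the plastic stripped library, and 0.470 and 0.432 CPM on ACP in control medium. On ACP in stripped serum the libraries held 0 and 2 reads, and with androgen 76 and 252 reads, or 3.29 and 11.0 CPM. The androgen libraries were above every other VCaP library, and the second was far above the first. Androgen against stripped serum gave a ratio of 160 (exact 95% interval 44.0 to 1329, counting error only; edgeR adjusted p = 0.0019), and the call held without any 1 library. The fitted log2 difference of 7.20 was less stable: it was 6.42 without stripped library 1, 10.57 without stripped library 2, 7.84 without androgen library 1 and 6.08 without androgen library 2. In stripped against control medium the ratio of control to stripped was 10.1 on ACP (interval 2.45 to 89.2, adjusted p = 0.17), and on plastic SPARC was at least 15.8-fold lower in the 1 stripped library (adjusted p = 0.0561). The plastic difference passed with no count filter (0.000395), in the fit of all lines (0.0048) and with DESeq2 (0.00715), with 1 library assumed to vary like the other groups. The fibroblast sum was 11.0 to 11.5 CPM in the androgen libraries and 41.7 to 162.8 CPM in the ACP stripped libraries, an order opposite to that of SPARC. Other lists moved with it: from stripped serum to androgen the sum of 7 osteoclast and myeloid markers went from 11.8 to 16.97 CPM up to 85.4 to 157.6 CPM (CSF1R at 0 reads in the first group, TYROBP in both), that of 6 basal markers from 25.7 to 55.7 CPM up to 73.6 to 104.2 CPM, that of 7 luminal markers from 6743 to 6953 CPM up to 8743 to 13542 CPM, and that of 8 lymphoid markers from 4.84 to 7.56 CPM up to 9.52 to 12.4 CPM (CD3E at 0 in both). Their part in the result was not tested.

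MDAPCa2a had SPARC almost only on plastic in control medium, at 4.02 and 1.16 CPM, with 1 to 4 reads in every other library. Stripped serum on plastic, at 0.133 and 0.0807 CPM, was far below both. SPARC was lower there by 4.48 on the log2 scale (SE 0.75, edgeR adjusted p = 0.0317), and culture time also differed. The call was lost without the first control library (-3.33, 0.269), the first stripped library (0.152) or the second (0.232), and the difference was -5.12 without the second control library. Here the fibroblast marker sum moved with SPARC (10.4 to 13.7 CPM in the control and 2.26 to 2.79 CPM in the stripped libraries). THY1 was at 0 reads in both groups and DCN at 0 in the stripped group. The liver sum fell too (10.3 to 17.1 against 1.25 to 2.79 CPM), as did the osteoblast sum (4.25 to 4.58 against 3.42 to 3.43 CPM). The luminal sum rose (11187 to 11391 against 13636 to 15198 CPM), as did the lymphoid sum (1441 to 1588 against 2008 to 2202 CPM). The part of these lists in the result was not tested. Androgen on ACP left SPARC at 3 reads against 2, both at or under the limit.

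**Figure D3:**
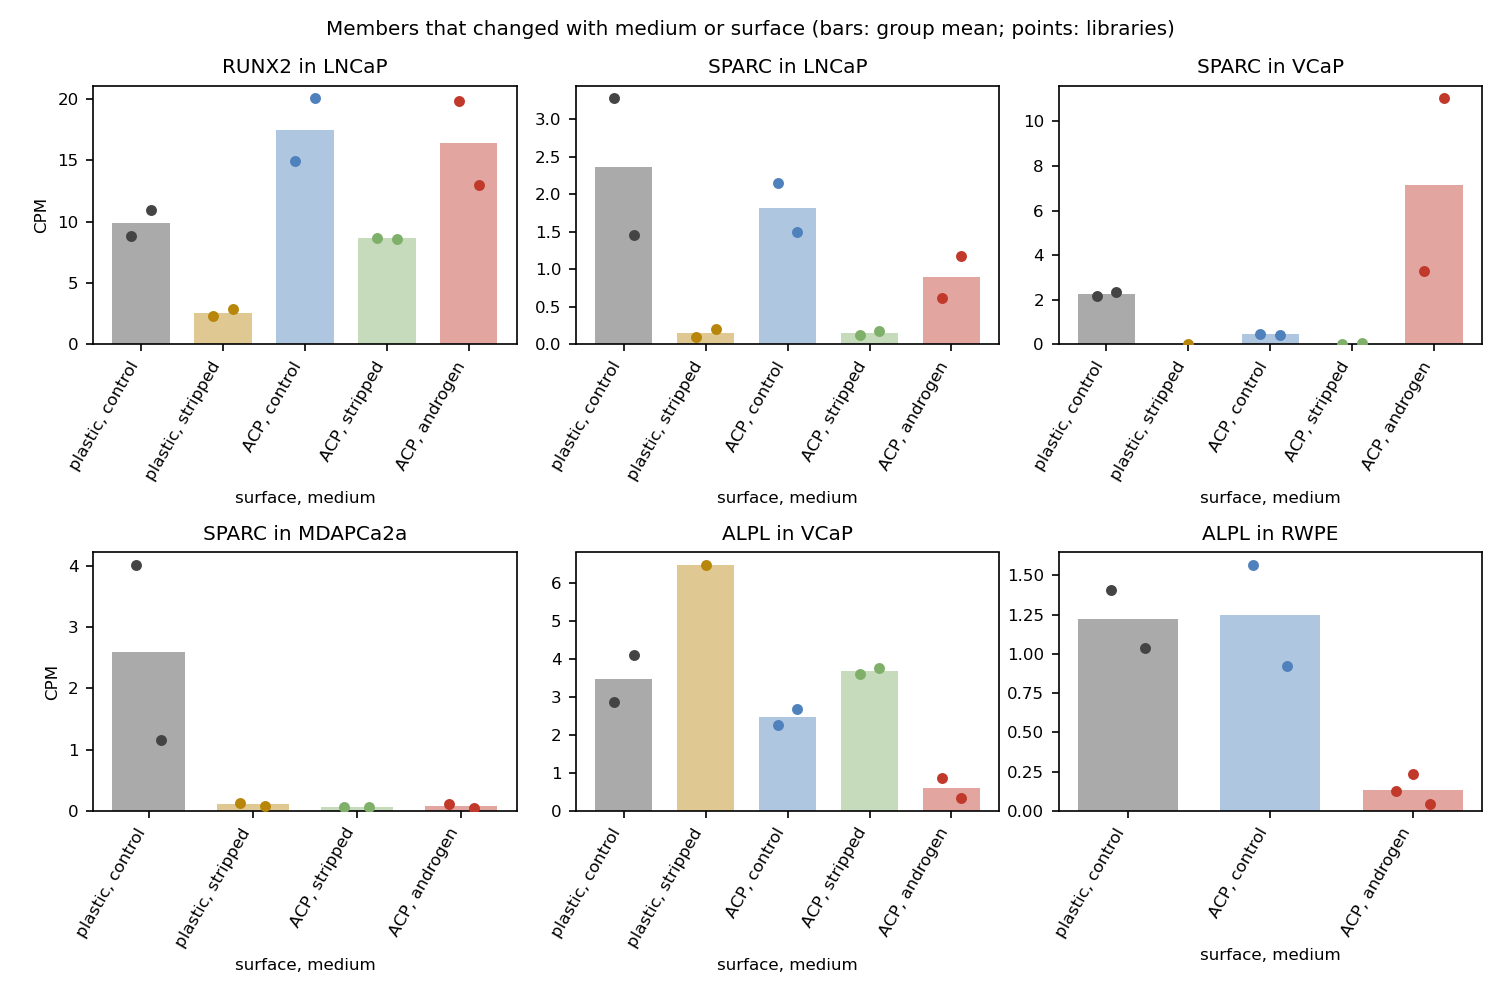
Levels in CPM (linear axes from 0) of RUNX2 and SPARC in LNCaP, SPARC in VCaP and MDAPCa2a, and ALPL in VCaP and RWPE, the genes that passed a test within those lines, by surface and medium; bars are group means and points are libraries. Stripped serum gives the lowest RUNX2 and SPARC bars in LNCaP, and androgen the highest SPARC and lowest ALPL bars in VCaP.

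The androgen effect passed an edgeR test of its difference between lines for 2 genes. The SPARC effect was larger in VCaP than in LNCaP by 4.66 on the log2 scale (SE 1.38, edgeR adjusted p = 0.0303), 1 of 6 genes with 10.9% of all genes. The fitted size rests on the 2 SPARC reads of VCaP in stripped serum, and the adjusted p lay between 0.0744 and 0.129 when 1 of these libraries was left out: LNCaP stripped 1 (0.0809) and 2 (0.129), LNCaP androgen 1 (0.0744), VCaP stripped 1 (0.124) and VCaP androgen 2 (0.111). Without VCaP stripped 2, which holds both reads, it was 8.09 (adjusted p = 0.0353), and it was 3.83 without VCaP stripped 1, 5.28 without VCaP androgen 1 and 3.52 without VCaP androgen 2. The ALPL effect in MDAPCa2a exceeded that in VCaP by 5.05 (SE 1.31, adjusted p = 0.0183), 1 of 6 genes with 7.86% of all genes. MDAPCa2a had 1 ALPL read in stripped serum and 7 with androgen, and the call was lost without VCaP androgen 2 (0.0554), MDAPCa2a stripped 1 (0.0858) or MDAPCa2a androgen 2 (0.199); without MDAPCa2a stripped 2, which holds that read, it was 8.0 (0.025). It was 5.84 without VCaP androgen 1, 4.20 without MDAPCa2a stripped 1 and 4.37 without MDAPCa2a androgen 2. The RUNX2 androgen effect in VCaP minus that in LNCaP was -1.20 (SE 0.42, adjusted p = 0.0677), and DESeq2 gave an adjusted p of 0.0315. The SPARC effect in MDAPCa2a minus that in VCaP did not pass in the edgeR fit with the count filter. It was -6.82 with no count filter (edgeR adjusted p = 0.045) and -6.93 with DESeq2 (adjusted p = 0.00365). MDAPCa2a held 3 SPARC reads with androgen against 2 in stripped serum, and VCaP 328 against 2. For MDAPCa2a against LNCaP the androgen effect differed for 0 of 6 genes (1.12% of all genes), and the surface effect in stripped serum for 0 of 6 (0.358%); in each, 2 genes were at an unadjusted p below 0.05 and none by DESeq2.

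TNFSF11 (RANKL) and its decoy TNFRSF11B (osteoprotegerin) are the ligand and inhibitor of osteoclast formation. TNFSF11 had 8 reads in all, at most 2 in a library, in 6 of the 34 libraries, so RANKL RNA was not detectable above the limit in any group. TNFRSF11B, on chromosome 8, had 169 reads. RWPE libraries held 3 to 10 of them (0.106 to 0.294 CPM) and LNCaP libraries 7 to 19 (0.154 to 0.665 CPM), so both lines had it in every library. VCaP libraries held at most 3 reads and MDAPCa2a at most 1. On plastic in control medium VCaP and MDAPCa2a had none. With these 2 groups taken at their limit of 3 reads, TNFRSF11B was 4.58-fold and 4.22-fold lower than in RWPE (edgeR adjusted p = 0.00154 and 0.00214). Against LNCaP it was 5.45-fold and 5.03-fold lower (adjusted p = 0.00106 and 0.00187). These folds leave out the counting error of the RWPE and LNCaP reads. LNCaP and RWPE did not differ by the test (0.25, SE 0.70, adjusted p = 0.787), and within LNCaP, the 1 line where it could be tested, 0 of 5 comparisons of medium or surface passed with edgeR, 0 were at an unadjusted p below 0.05 and 0 passed with DESeq2. The largest of these was stripped against control serum on plastic (1.24, SE 0.63, adjusted p = 0.245).

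On ACP with androgen the same line order of TNFRSF11B had 28 reads in LNCaP, 11 in RWPE, 3 in VCaP and 1 in MDAPCa2a. LNCaP differed from VCaP (adjusted p = 0.00998) and from MDAPCa2a (0.00457), and RWPE from MDAPCa2a (0.0421). These calls ended without VCaP androgen library 2 (0.0779), without MDAPCa2a library 1 (0.0519), and, for RWPE against MDAPCa2a, without RWPE library 1 (0.0674), RWPE library 2 (0.127) or MDAPCa2a library 1 (0.215).

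PTHLH and DKK1, a stimulus of RANKL and an inhibitor of WNT signalling, were RWPE genes in all 3 of its groups. PTHLH lies on chromosome 12, 27958084 to 27972705 on the minus strand, and DKK1 on chromosome 10, 52314296 to 52318042 on the plus strand. PTHLH read 8.65 and 10.8 CPM in RWPE on plastic, 6.37 and 4.72 CPM on ACP in control medium and 4.95, 7.64 and 5.14 CPM with androgen. Its plastic libraries were above all ACP libraries, but ACP against plastic did not pass (-0.78, SE 0.28, adjusted p = 0.136). The tumour lines had PTHLH at no more than 0.539 CPM in any library. VCaP was the lowest, with 6 reads over its 9 libraries. On plastic in control medium PTHLH was lower than in RWPE in LNCaP (log2 difference -4.60, SE 0.61, edgeR adjusted p = 8.29e-07), in MDAPCa2a (-4.39, SE 0.61, adjusted p = 1.6e-06) and in VCaP (-7.42, SE 0.77, adjusted p = 1.9e-08; -8.17 without VCaP library 2).

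Among the tumour lines on plastic in control medium PTHLH was lower in VCaP than in LNCaP (-2.82, SE 0.83, adjusted p = 0.00682) and than in MDAPCa2a (-3.02, SE 0.84, adjusted p = 0.00429). The first missed the threshold without LNCaP library 1 (0.0755) or VCaP library 1 (0.0577), and the second with the replicate number as a block (0.0865). Without VCaP library 2 they were -3.57 and -3.78. MDAPCa2a read 0.506 and 0.414 CPM on plastic in control medium and 0.0664 and 0.0404 CPM in stripped serum, 32 reads against 3 and a ratio of 8.38 (interval 2.62 to 42.8) that did not pass (edgeR adjusted p = 0.236). With androgen on ACP PTHLH was again lower than in RWPE, by a log2 difference of -5.25 in LNCaP (SE 0.67, adjusted p = 3.87e-07) and -4.60 in MDAPCa2a (SE 0.67, adjusted p = 2.54e-06; -5.63 without MDAPCa2a library 2), and by a ratio of 134 in VCaP (interval 36.9 to 1115, adjusted p = 1.26e-07).

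DKK1 read 9.90 and 13.5 CPM in RWPE on plastic, 15.4 and 13.7 CPM on ACP in control medium and 18.1, 19.4 and 11.1 CPM with androgen. The RWPE groups overlapped in part, and neither surface (0.34, SE 0.27, adjusted p = 0.478) nor androgen medium (0.18, SE 0.25, adjusted p = 0.655) passed. LNCaP and VCaP held 0 to 2 reads in each library, except 6 in the second LNCaP library with androgen. MDAPCa2a held 3 to 10 reads in each of its 8 libraries, the only tumour line with DKK1 in every library. Against RWPE on plastic in control medium DKK1 was lower in MDAPCa2a (-6.62, SE 0.61, adjusted p = 2.94e-09), 1086 times lower in LNCaP by the ratio of 905 reads to 1 (interval 194.4 to 42927) and at least 296-fold lower in VCaP. MDAPCa2a was above LNCaP there by 8 reads to 1, a ratio of 10.6 (interval 1.42 to 470.7, adjusted p = 0.0408), a call that ended without any 1 of the 4 libraries (adjusted p from 0.0501 to 0.222), and above VCaP, which was at least 2.89-fold lower (adjusted p = 0.0108, and 0.0655 without VCaP library 2). With androgen on ACP, DKK1 was lower than in RWPE by a log2 difference of -7.06 in LNCaP (SE 0.61, adjusted p = 7.51e-10) and -5.53 in MDAPCa2a (SE 0.56, adjusted p = 1.03e-08). The first was -6.34 without LNCaP library 1 and -8.70 without library 2, and the second -6.52 without MDAPCa2a library 2.

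SPARC against RWPE was lower in all 3 tumour lines on plastic in control medium, with log2 differences of -3.47 in LNCaP (SE 0.52), -3.52 in VCaP (SE 0.52) and -3.34 in MDAPCa2a (SE 0.52; edgeR adjusted p at most 5.44e-06). The LNCaP value was -4.16 without LNCaP library 1, and the MDAPCa2a value -4.49 without MDAPCa2a library 1 and -2.70 without library 2. With androgen on ACP the lines spread apart. LNCaP was at -4.22 (SE 0.55, adjusted p = 2.72e-07), MDAPCa2a at a ratio of 203 below RWPE (interval 69.2 to 985.2, adjusted p = 6.3e-09) and VCaP at -1.23 (SE 0.45, adjusted p = 0.0189). The VCaP difference missed the threshold without RWPE library 1 (0.0677), RWPE library 2 (0.0688) or VCaP library 1 (-0.61, 0.3), and was -2.28 without VCaP library 2. VCaP was above LNCaP by 2.98 (SE 0.55, adjusted p = 5.74e-05; 3.61 without VCaP library 1 and 1.85 without library 2), where on plastic in control medium the 2 did not differ by the test (-0.06, SE 0.50, adjusted p = 0.938). LNCaP was above MDAPCa2a with 54 reads to 3, a ratio of 11.3 (interval 3.65 to 56.3, adjusted p = 0.00441, and 0.0598 without MDAPCa2a library 2).

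ALPL and RUNX2 also differed between VCaP and the other tumour lines on plastic, and on ACP with androgen they passed the test against LNCaP. On plastic in control medium ALPL was higher in VCaP than in LNCaP by 3.93 (SE 0.57, edgeR adjusted p = 3.29e-06) and than in MDAPCa2a by 5.83 (SE 0.70, adjusted p = 1.9e-07), and both held without any 1 library. The first was 5.23 without LNCaP library 1 and 3.27 without LNCaP library 2, and the second 6.67 without MDAPCa2a library 2. RUNX2 there was lower in VCaP than in LNCaP (-0.91, SE 0.30, adjusted p = 0.0128) and than in MDAPCa2a (-0.76, SE 0.30, adjusted p = 0.0345). The first ended without LNCaP library 2 (0.0999) or VCaP library 1 (-0.44, 0.25), and the second without VCaP library 1 (-0.30, 0.448) or MDAPCa2a library 1 (-0.48, 0.291). Without VCaP library 2 the differences were -1.60 and -1.46. On ACP with androgen RUNX2 was again lower in VCaP than in LNCaP (-1.02, SE 0.30, adjusted p = 0.00553, and 0.11 without LNCaP library 1), and ALPL was higher (4.01, SE 0.86, adjusted p = 0.000327, and 3.22 without VCaP library 1). Against MDAPCa2a there, neither RUNX2 (-0.63, SE 0.30, adjusted p = 0.0821) nor ALPL (1.68, SE 0.71, adjusted p = 0.0514) passed. The ALPL difference did pass in other edgeR fits. Its adjusted p was 0.0426 with RLE size factors, 0.0452 with the replicate number as a block and 0.0409 without the plastic control libraries.

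**Figure D4:**
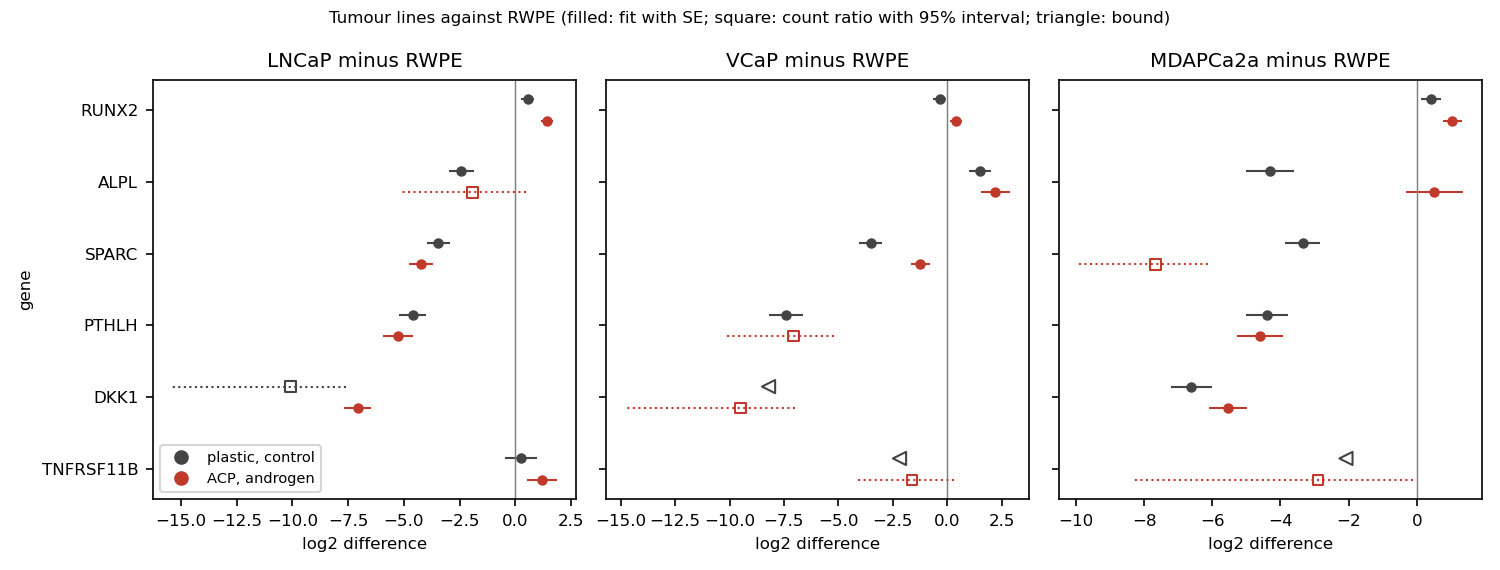
Log2 difference of each tumour line from RWPE for the 6 tested genes, on plastic in control medium (grey) and on ACP with androgen (red). Filled points are fitted differences with their SE, open squares are ratios of read counts with an exact 95% interval where a group had 1 to 3 reads, and triangles are bounds where a group had none. PTHLH and DKK1 lie to the left in all 3 lines, RUNX2 near or right of 0, and ALPL right of 0 only in VCaP in both conditions.

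Other genes of these pathways were counted in lists chosen by function. Of 24 bone matrix and mineralisation genes, androgen on ACP raised 1 and lowered 1 of 12 tested in LNCaP (median log2 difference 0.01, all genes -0.01), where 7.73% of all genes passed. ANKH, a pyrophosphate transporter, was the gene that rose (1.01, SE 0.24, edgeR adjusted p = 0.0282), and TNC, the matrix protein tenascin C, the one that fell (by 1.88, SE 0.45, adjusted p = 0.0288). In VCaP 0 rose and 2 fell of 17 (median 0.32, all genes -0.03; 17.5% of all genes passed), and DCN, the small proteoglycan decorin, was at 0.0216 CPM with androgen against 1.09 CPM in stripped serum (adjusted p = 0.00866). In RWPE 0 rose and 4 fell of 13 with androgen medium (median -0.27, all genes -0.02; 19.1% of all genes passed), with BGN, the proteoglycan biglycan, at 17.3 ± 9.50 CPM (SD, n = 3) against 55.9 ± 6.79 CPM (n = 2; adjusted p = 0.0172).

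Of 19 osteoblast factors, 1 rose and 3 fell of 15 tested in VCaP with androgen (median -0.86, all genes -0.03; 17.5% of all genes passed). The gene that rose was CBFB, the binding partner of RUNX proteins, at 56.5 ± 2.36 CPM (SD, n = 2) against 27.4 ± 1.88 CPM (n = 2; log2 difference 1.04, SE 0.19, edgeR adjusted p = 0.0074). The CBFB effect was larger in VCaP than in LNCaP by 1.23 (SE 0.20, adjusted p = 0.000486). BMP6, a bone morphogenetic protein, fell with androgen in LNCaP (by 1.92, SE 0.52, adjusted p = 0.0482), where it was the 1 of 13 tested factors that changed (7.73% of all genes), and in VCaP (by 2.82, SE 0.82, adjusted p = 0.0413). In RWPE 0 rose and 2 fell of 14, BMP7 among them, with 19.1% of all genes passing.

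Of 17 genes of the osteoclast axis, 2 rose and 0 fell of 12 tested in VCaP with androgen (median 0.16, all genes -0.03), a share near the 17.5% of all genes that passed. CXCL8, the chemokine interleukin 8, was one, at 85.1 ± 76.6 CPM (SD, n = 2) against 4.03 ± 0.734 CPM (n = 2; adjusted p = 0.00555). In LNCaP 0 rose and 1 fell of 13, near the 7.73% of all genes: TNFSF10, the death ligand TRAIL, which also binds osteoprotegerin, fell by 2.5 (SE 0.52, adjusted p = 0.0164). The same gene was higher in LNCaP on ACP than on plastic, by 2.32 in stripped serum (SE 0.52, adjusted p = 0.0266) and by 1.83 in control medium (SE 0.48, adjusted p = 0.0331). On plastic in control medium, 2 of 16 tested genes of this list passed as higher and 10 as lower in LNCaP than in RWPE (57.4% of all genes passed). In VCaP against RWPE 3 were higher and 9 lower of 16 (62.4%). Among those higher was TNFRSF11A, the RANK receptor that RANKL binds. It was at 6.83 ± 0.547 CPM (n = 2) in LNCaP, 8.10 ± 0.569 CPM (n = 2) in VCaP and 0.983 ± 0.0765 CPM (n = 2) in RWPE (edgeR adjusted p = 1.21e-05 and 3.52e-06 against RWPE).

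Of 21 genes of the WNT inhibitor axis, in which DKK1 acts, 1 rose and 3 fell of 14 tested in VCaP with androgen (median -0.13, all genes -0.03; 17.5% of all genes passed). CKAP4, a DKK1 receptor, rose by 0.65 (SE 0.20, edgeR adjusted p = 0.0481), and WNT5A, a WNT ligand, fell by 2.65 (SE 0.43, adjusted p = 0.00456). In LNCaP 1 rose and 0 fell of 13 (median 0.14, all genes -0.01; 7.73% of all genes passed), and in RWPE 0 rose and 3 fell of 11 (median -0.38, all genes -0.02; 19.1% passed). The ligand WNT7B was the gene that rose in LNCaP (0.76, SE 0.18, adjusted p = 0.031) and the largest fall in RWPE (by 1.45, SE 0.20, adjusted p = 0.0147). In LNCaP against RWPE on plastic in control medium, 4 genes of the list were higher and 3 lower of 16 tested. The median was 0.37 (all genes 0.01), and 57.4% of all genes passed, so the list as a whole did not have the order of DKK1. Among those lower was SFRP1, a secreted WNT antagonist, at 57.9 ± 11.8 CPM (n = 2) in RWPE and 0.334 ± 0.0660 CPM (n = 2) in LNCaP (edgeR adjusted p = 1.6e-10), the order that DKK1 had.

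ACP against plastic in stripped serum raised 2 and lowered 1 of 12 bone matrix genes in LNCaP (median -0.04, all genes 0.01; 6.12% of all genes passed). FN1, the adhesion protein fibronectin, was at 1515 ± 160 CPM (SD, n = 2) on ACP and 328 ± 49.6 CPM (n = 2) on plastic (log2 difference 2.25, SE 0.33, edgeR adjusted p = 0.00429), beside COL1A1, the main collagen of bone, which fell by 0.94 (SE 0.19, adjusted p = 0.0198). The FN1 surface effect was larger in stripped serum than in control medium by 2.65 (SE 0.50, adjusted p = 0.0105). Of 10 genes of the PTHLH and vitamin D axis, androgen raised 1 of 5 in LNCaP (7.73% of all genes passed) and 1 of 7 in VCaP (17.5%), and the androgen medium lowered 1 of 6 in RWPE (19.1%). FURIN, a protease that processes the PTHLH precursor, rose in LNCaP (0.85, SE 0.20, adjusted p = 0.0284) and fell in RWPE (by 0.70, SE 0.21, adjusted p = 0.0402). Of 7 receptors of matrix proteins, integrin subunits and CD44, androgen raised 1 of 5 tested in LNCaP (7.73% of all genes passed). In VCaP it raised 1 and lowered 1 of 7 (17.5%), and in RWPE the androgen medium lowered 1 of 5 (19.1%). ITGAV rose in LNCaP with androgen (0.72, SE 0.20, adjusted p = 0.0496) and ITGB1 in VCaP (0.60, SE 0.18, adjusted p = 0.0441). CD44, an osteopontin receptor in the same list, fell in VCaP (by 1.71, SE 0.39, adjusted p = 0.0177).

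The genes most like each member over the 17 group means, by Pearson's r of log2(CPM + 1) among 13218 genes whose highest group reached 5 CPM, are given as a description, since the groups of a line share its libraries' origin. They were KIAA1033 (0.815) and ARFIP1 (0.796) for RUNX2, TBC1D22B (0.962) and TCF7L2 (0.947) for SPARC, and REEP2 (0.972) and ACTN2 (0.967) for ALPL. For PTHLH they were SEMA3A and TRABD2A (both 0.988), and for DKK1 EFEMP1 (0.996) and QRFPR (0.995).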

How the data were processed

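RNA-seq read counts per gene were measured in 34 libraries of 4 prostate lines. The authors deposited raw counts for 26336 genes, made with STAR and HTSeq on hg19 per the submitters' processing notes; no source used here gives their versions, the annotation or the use of strand. In the RWPE plastic control columns 16 values of 12 genes fall in a range of spreadsheet date numbers and lie far above the other RWPE libraries. They are called date-like by this rule only, and none of these genes is described here. Groups come from the labels. Totals were 15440141 to 44779246, and intervals and limits cover counting error only.

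edgeR 4.0.16 (R 4.3.3, limma 3.58.1) fitted quasi-likelihood models to the counts with TMM scaling, filterByExpr at a count minimum of 10, and Benjamini-Hochberg adjustment over all genes tested, with 0.05 as the threshold. Within-line comparisons used that line's libraries (13626 to 15614 genes tested), and comparisons between lines and differences of effects used all 34 (17323 genes). SPP1, IBSP, BGLAP and TNFSF11 passed the filter in none of these fits. SE is the log2 difference divided by the square root of F. A group's limit is 3 counts over its libraries. With 1 to 3 reads the ratio has an exact 95% interval. With none a bound is given, the level of the other group over this limit, without the counting error of that other group. Levels per kilobase use exon lengths of GENCODE release 29 on GRCh38. The fits were also run on simulated counts with a common spread for all genes. That run does not cover genes that vary more between libraries.

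The 10 genes, the companion lists and the tests were chosen with earlier results of these data known. All 10 genes are named; of each list, at most the largest rise and largest fall among called genes with at least 1 CPM in the higher group. The 2 genes most like each member with a group mean of at least 5 CPM are also named. Alternatives were other size factors, no filter, the replicate number as a block, other sets of libraries, leaving out each library, leaving out genes with date-like values and DESeq2 1.42.0.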

Additional observations from a re-analysis of the deposited data

Results flagged for a closer look

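These 2 results stand out because an effect differed between lines by a test of the difference itself. The SPARC response to androgen on ACP was larger in VCaP than in LNCaP by 4.66 on the log2 scale (SE 1.38, edgeR adjusted p = 0.0303), with 328 reads against 2 in VCaP and 54 against 9 in LNCaP. The ALPL response in MDAPCa2a minus that in VCaP was 5.05 (SE 1.31, edgeR adjusted p = 0.0183), with 7 reads against 1 in MDAPCa2a and 28 against 166 in VCaP. In both cases 1 group holds only 1 or 2 reads.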

How the results depend on the processing

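No called result changed direction under any alternative. Over the 6 pairs of lines, the 24 calls on plastic in control medium ranged from 17 to 25 over all alternatives and the 21 calls on ACP with androgen from 17 to 22. The 3 calls for androgen on ACP ranged from 2 to 4, and the 3 for stripped serum on plastic from 2 to 4. Leaving out 1 library gave 0 to 1 calls for RWPE androgen medium, for the surface in stripped serum and for the surface in control medium (1 each), 0 to 2 for stripped serum on ACP (2) and 0 to 3 for differences of effects (2). Stripped serum on ACP gave 1 call in a fit without the plastic control libraries, an alternative chosen after seeing the data, and 1 in the fit of all lines. The surface in control medium gave 0 in the fit of all lines. Differences of effects gave 0 in the fit of the compared groups and 4 with DESeq2. The cause was not tested. The labels do not say that shared replicate numbers pair libraries, and of 25 pairs of groups 8 had deviations correlated over 0.1 and 7 under -0.1. With the replicate number as a block, the 24 calls became 23 and every other count was as before (21, 3, 1, 1, 2, 1, 3 and 2); ALPL in VCaP against RWPE (adjusted p = 0.0504 on plastic, 0.0915 on ACP), PTHLH in VCaP against MDAPCa2a on plastic (0.0865) and TNFRSF11B in MDAPCa2a against RWPE on ACP (0.0916) missed the threshold under it. Other calls that missed the threshold under an alternative were RUNX2 in VCaP against LNCaP on plastic (0.117 in the fit of the compared groups) and against MDAPCa2a (0.0634 with RLE size factors, 0.197 in the fit of the compared groups, 0.0586 with DESeq2), DKK1 in MDAPCa2a against LNCaP (0.0704, DESeq2), and, on ACP, TNFRSF11B in VCaP against LNCaP (0.068, DESeq2) and in MDAPCa2a against RWPE (0.0518 without the plastic control libraries, 0.105 with no filter, 0.136 with DESeq2). In LNCaP they were the SPARC androgen rise (0.0514, fit of all lines), the RUNX2 fall on ACP (0.0604 without the plastic control libraries, 0.057 in the fit of all lines) and its rise on ACP in control medium (0.0982, fit of all lines). The differences of the SPARC and ALPL androgen effects had 0.0759 and 0.0857 in the fit of the compared groups. Of 1335 alternative values of 102 results that were not called, 25 were called and 67 changed sign. With 2 libraries in most groups and few reads per library, differences in IBSP, BGLAP and TNFSF11 were not detectable at this depth. For BGLAP, reads shared with overlapping genes are a further limit.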
